A study of Rattus norvegicus with 11 samples.

Results

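Gad1, which encodes an enzyme of GABA synthesis, was the amacrine transmitter gene that could be read in these P23H and wild-type rat retinas. In 7 of 9 P23H libraries, 4 with DMSO and 3 with halofantrine, Gad1 lay above both wild-type libraries, at 121% to 145% of the wild-type mean. In the other 2 it lay below both, at 76.5% and 75.8%. Those 2 libraries, DMSO replicate 3 and halofantrine replicate 1, also stand apart from the other P23H retinas across the whole transcriptome. With them set aside, 33.6% (DMSO) and 36.8% (halofantrine) of 12031 genes likewise lay wholly above wild type, so this layout is common. In the edgeR fit of all 11 libraries no 2 groups differed in Gad1 past the adjusted threshold, and without these 2 libraries both P23H groups were higher than wild type. The 2 libraries left out are the lowest in Gad1, and 44.8% (DMSO) and 45.5% (halofantrine) of all genes also differed from wild type in that fit.

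The genes of interest were Gad1 (ENSRNOG00000000007), Gad2 (ENSRNOG00000018200) and Th (ENSRNOG00000020410), listed by identifier for their role in amacrine cells. Of these 3, only Gad1 has a row in the 12037-gene count and normalized tables, and it passed the filter on low counts. Gad2 and Th were not analysed here. Every value below is therefore for Gad1, that is, for 1 gene of 12037.

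Amacrine cells are interneurons of the inner retina that shape the signal passing from bipolar cells to ganglion cells, and most of them release GABA or glycine. Gad1 and Gad2 encode both forms of glutamate decarboxylase, the enzyme that makes GABA from glutamate, and Gad1 is also used by some horizontal cells. Th encodes tyrosine hydroxylase, the rate-limiting enzyme of dopamine synthesis, which in the retina marks a sparse class of dopaminergic amacrine cells. Photoreceptors, the cells lost in retinitis pigmentosa, do not use GABA as their transmitter, so the level of Gad1 in whole-retina RNA can serve as a gauge of inner retina.

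The retinas came from female rats in 3 groups. P23H rats were hemizygous for transgene line 1, which carries a mutant rhodopsin, and were bred by crossing to Long Evans (strain label P23HxLE). Both eyes received 5 µL into the vitreous, as DMSO (n = 5) or as halofantrine (n = 4), an antimalarial drug, within a stated range of 20 to 100 µM. Wild-type rats (n = 2) were untreated and of strain SDxLE. Genotype, strain cross and injection thus differ together between wild type and the P23H groups and cannot be told apart. The same holds for the letter that closes each sample title, L in wild type and R in all P23H rats, whose meaning the labels do not give. The promoter of the transgene, the number of injections behind each library and the age at collection are not given in the labels. The tissue label could not be checked against cell type markers, because gene symbols could not be matched to the identifiers.

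Gene table totals lay between 11685202 and 34198536 estimated counts per library. Over 12031 genes, log2 CPM values (counts scaled to a common library size) correlated at Pearson's r of 0.952 to 0.987 among 7 of the P23H libraries. It was 0.815 to 0.844 between DMSO replicate 3 and those libraries, and 0.924 to 0.942 between halofantrine replicate 1 and those libraries (r is across genes, which are not independent replicates). The share of transcript counts outside the gene table was 3.41% in DMSO replicate 3 and 3.79% in halofantrine replicate 1, against 1.58% to 1.90% in the other 9. The part of these differences in the Gad1 values was not tested. Results that rest on either library are given with and without both.

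The start of Gad1 is shown to place the gene. In the RefSeq annotation of build GRCr8, the 58 bases just before the first annotated base of Gad1, chr3:75777202-75777259 on the plus strand, read as follows, with the letters TATAAA in capitals.
Gad1: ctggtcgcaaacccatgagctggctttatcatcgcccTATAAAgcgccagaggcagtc
The capitals begin 21 bases before the gene's first base. TATAAA was the one motif searched, on both strands, and it occurred 1 time in the 300-base RefSeq window around the Gad1 start. Of 33469 such windows, 14.2% held it on either strand. The match is a description of the letters and not a measured site.

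Gad1 was well covered in every library, with 3707 to 15243 estimated counts. Counting error was small beside the differences between libraries, since the 95% Poisson interval reached 1.59% to 3.23% of the level to either side (it covers counting error only). The CPM below carry TMM factors, which adjust each library total for differences in RNA composition between libraries.

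In the untreated wild-type retinas, Gad1 was at 299 and 307 CPM. The 2 values lay within each other's counting interval, and the mean was 303 ± 5.12 CPM (SD, n = 2).

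In P23H retinas given DMSO, Gad1 was at 385, 426, 232, 441 and 401 CPM in replicates 1 to 5. Replicate 3 was the low one, and the other 4 lay within 385 to 441 CPM. The group mean was 377 ± 83.9 CPM (SD, n = 5), and it was 413 ± 24.9 CPM (SD, n = 4) without replicate 3.

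In P23H retinas given halofantrine, Gad1 was at 230, 391, 436 and 368 CPM in replicates 1 to 4. Replicate 1 was the low one, and the other 3 lay within 368 to 436 CPM. The group mean was 356 ± 88.9 CPM (SD, n = 4), and it was 398 ± 34.6 CPM (SD, n = 3) without replicate 1.

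**Figure D1:**
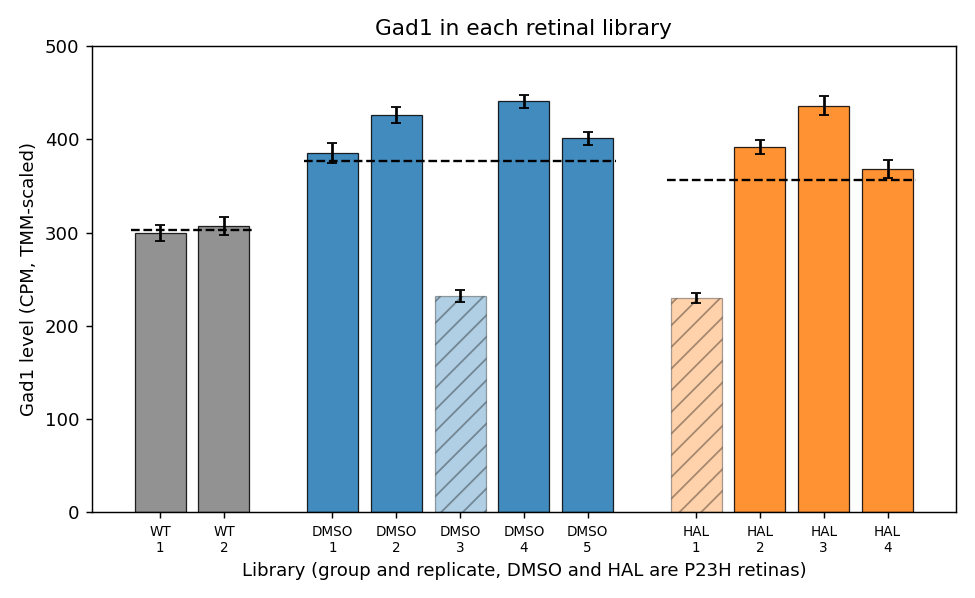
Gad1 level in each of the 11 libraries, in TMM-scaled CPM on an axis from 0, with 95% Poisson intervals as error bars and the group mean over all libraries as a dashed line. Hatched pale bars are DMSO replicate 3 at 232 CPM and halofantrine replicate 1 at 230 CPM, both below the wild-type libraries at 299 and 307 CPM, while the 7 other P23H libraries lie between 368 and 441 CPM.

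Ordered by their means over all libraries, DMSO was highest, halofantrine next and wild type lowest, but the P23H ranges ran from below to above the wild-type values and the groups overlapped. Among single libraries, halofantrine replicate 1 and DMSO replicate 3 came lowest and their counting intervals overlapped, at 224 to 235 and 225 to 239 CPM. Both wild-type libraries followed, and the 7 other P23H libraries lay above them with DMSO and halofantrine intermixed.

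The authors' normalized values gave the same layout. They are the same counts divided by 1 constant per library, so they are not an independent reading. Wild type was at 307 and 319, DMSO replicate 3 at 240 and halofantrine replicate 1 at 233. The other DMSO libraries lay at 378 to 434 and the other halofantrine libraries at 375 to 435, again above both wild-type values.

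The mutant retina given solvent was compared with wild type to ask whether the inner retinal transcript was kept. With all 11 libraries, Gad1 in P23H DMSO exceeded that in wild type, with a log2 fold change of 0.31 (SE 0.270, 95% interval -0.28 to 0.91), which did not pass the threshold (adjusted p 0.419, edgeR quasi-likelihood test, Benjamini-Hochberg over 12031 genes). In this comparison 21.2% of all genes passed. An exact permutation of 5 against 2 libraries gave p = 0.381 for the difference in mean log2 CPM. The lowest p it can give is 0.0952. Fewer cells of a type and less RNA per cell cannot be told apart in whole-retina RNA, and a larger share of Gad1 can likewise come with less RNA from other cells.

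Without both outlying libraries, Gad1 was higher in P23H DMSO than in wild type, with a log2 fold change of 0.38 (SE 0.0926, 95% interval 0.17 to 0.58), or 29.7%, with an adjusted p of 0.00798 by edgeR. This fit scales the remaining libraries anew. On the CPM scaled with all 11 libraries, as in the group means above, mean log2 CPM was higher by 0.45. All 4 DMSO libraries lay above both wild-type libraries. Exact permutation of these 4 against 2 libraries gave p = 0.133, the lowest p it can give. The edgeR result places Gad1 among many genes, since 44.8% of 12028 genes passed in that fit in either direction, 2642 of them higher. In 33.6% of 12031 genes, on the CPM scaled with all 11 libraries, the DMSO values lay wholly above wild type. As many as 21.9% of genes had a fold change at least as high. With DMSO replicate 3 alone left out the log2 fold change was again 0.38, with a larger SE of 0.203 (adjusted p 0.180 by edgeR). With halofantrine replicate 1 alone left out it was 0.25 (SE 0.207, adjusted p 0.384 by edgeR). Halofantrine replicate 1 is not part of this comparison and enters it through the shared scaling and spread. The 2 libraries that were left out are the ones with the lowest Gad1, so leaving them out raises the P23H means by construction. With all 11 libraries kept, Gad1 passed as well by limma-voom with sample quality weights (0.44 on the log2 scale, adjusted p 0.000721). These weights count discordant libraries less, and 59.9% of genes passed in that fit. The libraries least like the other P23H ones are the same 2, so this result is not independent of leaving them out.

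Halofantrine-treated P23H retinas were compared with wild type in the same way. With all 11 libraries the log2 fold change was 0.23 (SE 0.278, 95% interval -0.38 to 0.85, adjusted p 0.583 by edgeR), and 13.1% of all genes passed. Exact permutation of 4 against 2 libraries gave p = 0.667, where the lowest possible p is 0.133. Without both outlying libraries Gad1 was higher by 0.34 on the log2 scale (SE 0.0970, 95% interval 0.13 to 0.56), or 26.8%, with an adjusted p of 0.0157 by edgeR. On the CPM scaled with all 11 libraries, mean log2 CPM was higher by 0.39. All 3 halofantrine libraries lay above both wild-type libraries on that scale, as they did for 36.8% of genes. Exact permutation of these 3 against 2 libraries gave p = 0.2, again the lowest p it can give. In the fit, 45.5% of genes passed the threshold in either direction, 2683 of them higher. This comparison shares its wild-type libraries with the one before it, so the 2 fold changes are not independent. With sample quality weights and all 11 libraries the log2 fold change was 0.37 (adjusted p 0.0115 by limma-voom). In that fit 55% of genes passed, and its result is likewise not independent of leaving both outlying libraries out.

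The effect of the drug was read from halofantrine against DMSO within P23H retinas. Gad1 differed by a log2 fold change of -0.08 (SE 0.213, 95% interval -0.55 to 0.39), with an adjusted p of 0.918 by edgeR, and its ranges overlapped. An exact two-sided permutation of the 9 library labels gave p = 0.587 for the difference in mean log2 CPM. By edgeR 1 gene of 12031, or 0.00831%, passed here, and 1310 had an unadjusted p under 0.05.

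Without both outlying libraries the estimate was closer to 0 and narrower, with a log2 fold change of -0.03 (SE 0.0803, 95% interval -0.21 to 0.15, adjusted p 0.864 by edgeR). In that fit 2 of 12028 genes passed, or 0.0166%. The difference changed sign, to 0.10, without halofantrine replicate 1, and it was -0.19 without DMSO replicate 3. Neither value passed the threshold. A change of Gad1 under halofantrine was thus not detectable with these libraries.

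**Figure D2:**
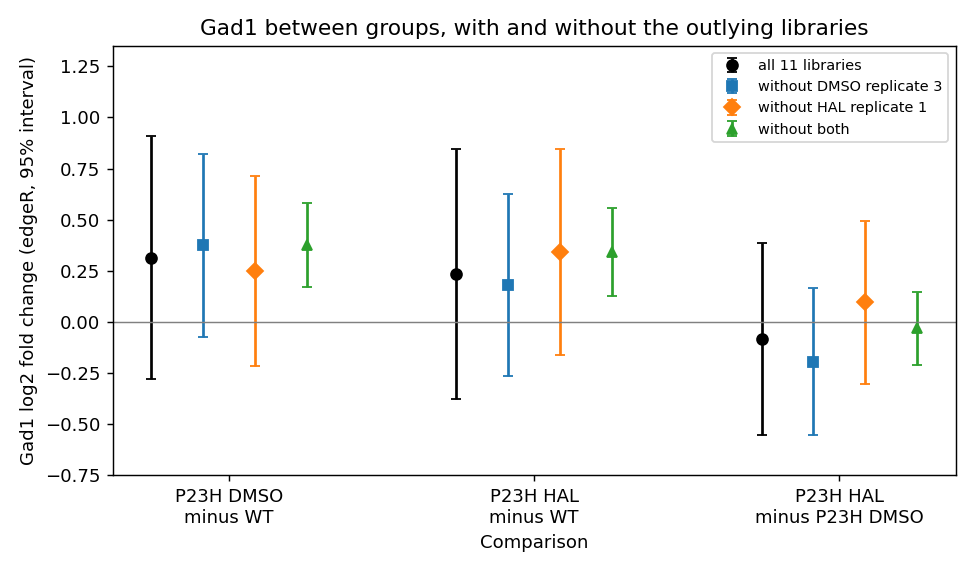
Gad1 log2 fold change in each of the 3 group comparisons, from edgeR, with 95% intervals, for all 11 libraries, without DMSO replicate 3, without halofantrine replicate 1 and without both. The intervals against wild type lie above 0 only when both libraries are left out (0.17 to 0.58 and 0.13 to 0.56), and those for halofantrine minus DMSO span 0 in all 4 fits.

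The spread of Gad1 between replicates followed the 2 libraries. Its biological coefficient of variation, which leaves counting error aside, was 0.236 over the 11 libraries and 0.0903 without both. The trend over genes of the same abundance was 0.222 and 0.119 in these fits, so Gad1 was a little above the trend with the 2 libraries and below it without them. The coefficient of variation of its CPM was 6.03% in the 4 other DMSO libraries and 8.68% in the 3 other halofantrine libraries.

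The size of the drop was nearly equal in both libraries. In DMSO replicate 3, Gad1 was 0.83 lower on the log2 CPM scale than the mean of the other 4 DMSO libraries, or 43.8% lower. In halofantrine replicate 1 it was 0.79 lower than the mean of the other 3 halofantrine libraries, or 42.2% lower. The remaining P23H libraries deviated from the mean of their own group's other non-outlying libraries by -0.17 to 0.20 on that scale.

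Few genes dropped as far as Gad1 in both. In DMSO replicate 3, 609 genes (5.06%) were at least as far below their group, and in halofantrine replicate 1, 504 genes (4.19%) were. Both lists contain Gad1 by construction, and they shared 47 genes, which is 7.72% of the first list, 9.33% of the second and 0.391% of all genes tested. These counts describe 1 library each and carry no test.

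**Figure D3:**
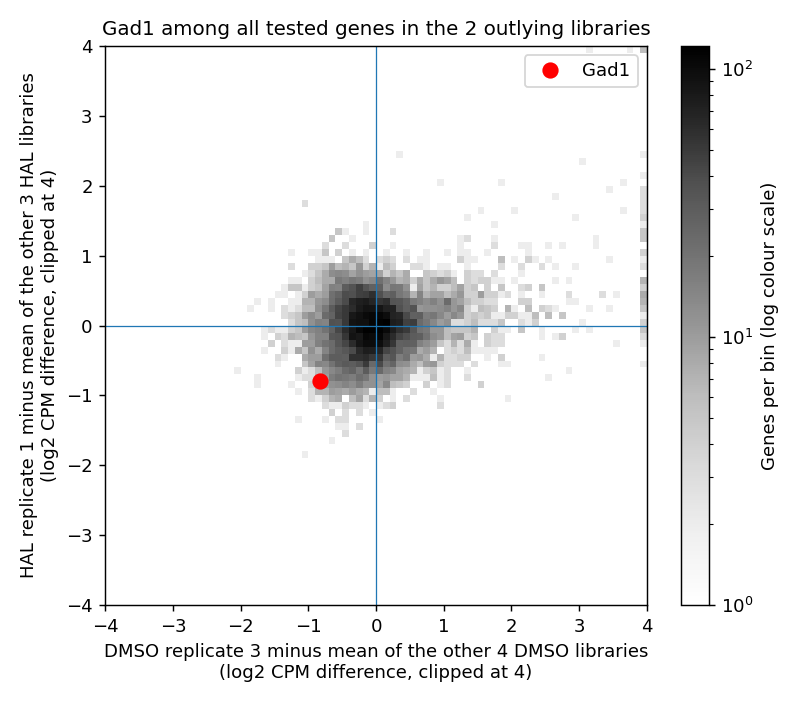
Deviation of each of 12031 genes in DMSO replicate 3 from the other DMSO libraries (horizontal axis) and in halofantrine replicate 1 from the other halofantrine libraries (vertical axis), as log2 CPM differences clipped at 4, with shading for genes per bin on a log scale. Gad1, the red point, lies at -0.83 and -0.79, in the lower left of the cloud. On both axes 47 genes, Gad1 included, lie at least as low.

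The genes whose pattern over the 11 libraries was closest to Gad1 were sought by the root mean square difference of log2 CPM, after centring each gene on its own mean. Among 12030 genes of at least 1 CPM, the median difference was 0.409, and a gene with no variation at all would have been at 0.328. The closest gene was ENSRNOG00000008570, at 0.0443. It was at 364 and 354 CPM in wild type, at 296 CPM in DMSO replicate 3 and 275 CPM in halofantrine replicate 1, and at 420 to 535 CPM in the other P23H libraries. Second was ENSRNOG00000008000, at 0.0527, with 103 and 109 CPM in wild type, 89.8 and 84.4 CPM in the same 2 libraries and 131 to 154 CPM in the others. The third lay at 0.0602. The low level in both outlying libraries and the higher level in the other 7 P23H libraries were thus found in other genes as well, which were picked for this likeness.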

How the data were processed

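RNA sequencing was performed on 11 rat retinas, with strand-specific libraries of polyadenylated RNA. The authors aligned reads to the Ensembl rat transcriptome with kallisto, which divides reads among transcripts, and summed transcripts to genes with tximport, so genes with similar copies can share reads. The deposited gene and transcript tables hold estimated counts with no depth scaling. The deposited normalized table holds a signal equal to the gene count divided by 1 constant per library. A further table deposited by the authors, on halofantrine and DMSO, holds their own fold changes and p-values and was not used.

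Counts were rounded, and filterByExpr removed 6 of 12037 genes. All 11 libraries entered a quasi-likelihood fit (edgeR 4.0.16, R 4.3.3) with TMM factors and group as the sole term. P-values were adjusted over all genes tested by Benjamini-Hochberg, with a threshold of 0.05. The standard error is the log2 fold change divided by the root of F. Log2 CPM used a prior count of 2. The fit was also run on simulated data, and the outcome is not given here. Libraries of a group all differed by more than sampling noise (lowest chi-square per degree of freedom 6.87). Replicates were numbered in order of deposition.

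Alternatives were limma 3.58.1, DESeq2 1.42.0, other scalings and filters, and libraries left out. Transcript table totals and the permutation test were chosen after seeing the data. Genes and lists were chosen with earlier results of these data known. Pathway and cell type lists, and the ratio of Gad1 to bipolar markers, were not analysed here, since 0 RefSeq entries used here carry an Ensembl identifier. Named genes were Gad1, Gad2, Th and the 3 genes closest to Gad1 in pattern, of which 2 identifiers are printed.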

Additional observations from a re-analysis of the deposited data

Results flagged for a closer look

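DMSO replicate 3 stood apart from its group in Gad1. Its level was 232 CPM against 385 to 441 CPM in the other 4, and its gap to the nearest library was 0.733 of the group's range, above Dixon's critical value of 0.71 for 5 samples. In the authors' normalized values it was at 240, with a gap of 0.713. Chance gives such a library in about 1 of 20 groups that were not picked in advance. DMSO replicate 3 was already known to stand apart, so that rate does not apply to it. The 2 scales are not independent. Halofantrine replicate 1, at 230 CPM, had a gap of 0.670, under the critical value of 0.829 for 4 samples.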

How the results depend on the processing

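Gad1 exceeded wild type in both P23H groups under all 24 alternatives run. These reuse the same libraries and are not independent. Some could hardly move the estimate, such as DMSO minus wild type without halofantrine replicate 2, again at 0.31. Gad1 passed the adjusted threshold in 2 of the 24. The first left out both outlying libraries (log2 fold changes of 0.38 for DMSO and 0.34 for halofantrine). The second was limma-voom with sample quality weights (0.44, adjusted p 0.000721, and 0.37, adjusted p 0.0115). The libraries least like the other P23H ones are the same 2, so these 2 fits are not independent. Over the alternatives the adjusted p was 0.000721 to 0.714 for DMSO and 0.0115 to 0.819 for halofantrine. Leaving out 1 library at a time gave 0.20 to 0.38 for DMSO minus wild type, 0.12 to 0.34 for halofantrine minus wild type and -0.19 to 0.10 for halofantrine minus DMSO. The last changed sign to 0.10 without halofantrine replicate 1 and passed in 0 of 24 alternatives. With a wild-type library left out, the lone one is assumed to vary like the other groups. Permutation of 5 against 2 libraries gave p = 0.381 (minimum 0.0952). Scaling by library size moved the median of all genes by over 0.1 on the log2 scale, to 0.15 (DMSO) and 0.17 (halofantrine) against wild type, from 0.04 and 0.05. Relative to that median, Gad1 was at 0.27 and 0.18 under either scaling. Genes passing the threshold numbered 519 to 7207 for DMSO against wild type (2548 in the reported fit), 211 to 6622 for halofantrine against wild type (1580) and 0 to 742 for halofantrine against DMSO (1). The low counts came with wild-type replicate 2 left out for the first 2, and the high ones from sample quality weights. No paired analysis was possible because the labels give the groups no shared replicate numbers. Scaling to bipolar, amacrine or ganglion markers, the list counts and another pseudocount for that ratio were not run. The SE of DMSO minus wild type was 0.270 with all libraries and 0.0926 without both outlying ones, with the same 2 wild-type libraries.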
